A study of Homo sapiens with 2 samples.

Results

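The genes described here are 34 enzymes of purine and pyrimidine nucleotide synthesis, chosen by name from 56544 gene names in a table of expression in HGC-27, an established human gastric cancer line that the labels call undifferentiated in its level of differentiation. All 34 were found, each on 1 entry. All reached an FPKM of 1 in at least 1 library, the minimum used here for a gene to count as measured. By definition, FPKM is reads scaled by transcript length and by library size. The deposited values that were examined for this showed no scaling by length, as described under the processing below. Comparisons of level between genes, including shares of a pair and the word abundant, may therefore mix transcript length with abundance. The first library came from cells treated with a peptide named SOS in the sample titles and SHAP in the series title, and the other from cells treated with a control peptide. In both, the peptide was carried by PDPA micelles and RNA was taken after 48 h. Each group is 1 library, so the differences cannot be set against a spread between replicates and were not tested, and they describe these 2 libraries. How many cultures were pooled for each is not given in the sources used here.

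Cells build purines on a ribose phosphate carrier, PRPP, in a chain of reactions that ends at IMP, from which AMP and GMP are made. Pyrimidines are built as a free ring that is joined to PRPP to give UMP, the precursor of CTP. Ribonucleotide reductase turns ribonucleotides into deoxyribonucleotides for DNA, thymidylate synthase adds the methyl group that DNA needs in place of uracil, and salvage enzymes reuse bases and nucleosides. Dividing and tumour cells draw heavily on these pathways, and several of the enzymes are targets of anticancer and immunosuppressive drugs.

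Nearly all of these genes were lower in the SOS library as deposited, by modest amounts. Of the 34 genes, 33 had a log2 ratio below 0 and only TK2 lay above it, where the ratio is log2((SOS FPKM + 1)/(control FPKM + 1)) and understates the difference of genes of low level. The median ratio was -0.56, against -0.05 over all 14288 measured genes, of which 54.1% lay below 0. By at least 1.5-fold on this scale, 11 of the 34 were lower and none was higher, whereas 10.3% of all measured genes were lower and 11.6% higher by as much. None of the 34 reached a 2-fold difference in either direction, which 1.64% of measured genes did downward and 3.74% upward. A group of 15 genes lay between -0.65 and -0.5, around the 1.5-fold limit of -0.58, so the count of 11 is sensitive to where the limit is set. It also rests on the scaling and other settings. It was 4 at an equal summed FPKM (4.02% of all measured genes). With the mitochondrially encoded genes left out of that sum it was 2 (2.52%). With the median ratio of each decile of mean FPKM set to 0 it was 1 (7.03%), and with that of all measured genes set to 0 it was 9 (8.23%). Adding 0.1 in place of 1 to each FPKM gave 13 (12.7%), and adding 5 gave 8 (5.52%). By the authors' deposited ratio, turned to SOS over control with its median offset removed, it was 16 (11.9%). The summed FPKM of the 34 genes was 3209 in SOS and 4796 in control, a ratio of 0.669.

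The level of expression bears on this result. In these libraries the ratio declined with level, and nucleotide synthesis genes are abundant: 14 of the 34 were in the highest decile of measured genes by mean FPKM and 9 in the next. In the highest decile the median of all genes was -0.40 and 85.4% lay below 0. There, 6 of the 14 synthesis genes were lower by at least 1.5-fold, against 24.4% of all genes in that decile. In the next decile, where 78.4% of genes lay below 0, it was 3 of 9, against 17.8%. Set against the median of all genes in its own decile, 32 of the 34 synthesis genes were below it, with a median distance of -0.23, PFAS at a distance that rounds to 0.00 being counted as below, and GUK1 and TK2 were above it. Scaling the libraries to an equal summed FPKM moved the median of all genes to 0.15. The median of the 34 was then -0.33, and GUK1 and RRM2B lay above 0 with TK2, leaving 31 below. With the mitochondrially encoded genes left out of the sum, the median of all genes was 0.26 and that of the 34 was -0.21, and 27 of the 34 lay below 0.

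**Figure D1:**
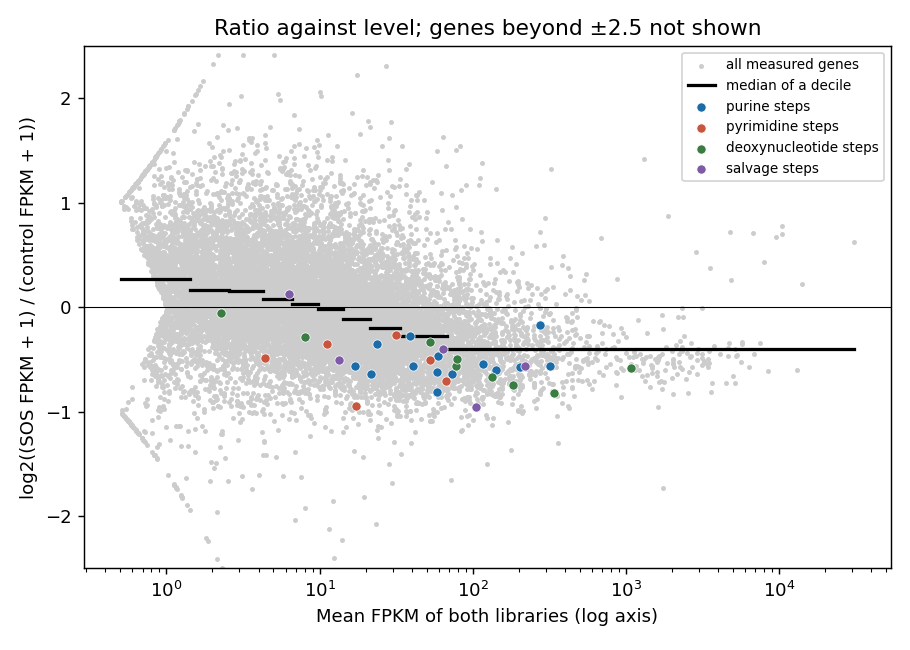
Log2 ratio of SOS over control (vertical axis) against the mean FPKM of the 2 libraries (horizontal log axis) for all measured genes (grey) and the 34 nucleotide synthesis genes (coloured by step), with the median of each decile of genes as a black bar. The decile medians decline to -0.40 at the highest levels, and 32 of the 34 coloured points lie below the bar of their decile.

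Which library is which was taken from the names of the 2 FPKM columns. The log2 ratio in the authors' deposited table is positive for 33 of the 34 genes, that is where the control column is higher. Either that ratio has control on top or the names of the 2 columns were swapped, and a swap would turn each direction described here. Turned to SOS over control and with its median offset from the FPKM ratio removed, it had a median of -0.57 over the 34 genes. The authors' deposited table marks 2 of them, UMPS and NME1, as significant, both on the side where the control column is higher. It marks 2.3% of measured genes on that side and 3.63% on the other. Its test is not given in the sources used here and could only compare these 2 libraries.

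A few facts of the libraries stand beside these values. Transcripts of the mitochondrial genome held 18% of the summed FPKM in SOS and 10.2% in control. All 8 gastric epithelial markers examined were under an FPKM of 1 in both libraries, with MUC5AC and TFF1 at 0. Of 3 mesenchymal markers, the filament gene VIM was at 3140 in SOS and 3161 in control. FN1 was at 9.0 in SOS and 5.5 in control, and CDH2 was under 1 in both. The 6 fibroblast markers summed to 1133 in SOS and 760 in control, all 3 endothelial markers and 4 of 5 leukocyte markers were under 1, and of the erythroid pair HBB was at 0 and HBA1 at 188 in SOS and 224 in control. The part of these differences in the results was not tested. Fewer cells of a kind and less RNA per cell cannot be told apart in bulk RNA.

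The promoter of a gene is printed where the results return to it. Windows from RefSeq (build GRCh38.p14), 250 bases before to 50 after an annotated start, were at hand for 31 of the 34 genes (ADSS under the name ADSS2), 48 windows in all. ADSL, IMPDH2 and RRM2B had none. They were searched on both strands for the E-box CACGTG, bound by MYC and related factors, for the CCAAT box CCAAT, bound by NF-Y, and for 4 spellings of an E2F site, TTTCGCGC, TTTGGCGC, TTTCCCGC and TTTGCCGC. The first window below is that of PAICS, which also covers the start of PPAT, the neighbour on the other strand. The others belong to TYMS, with an E2F spelling, to NME1, with an E-box and a CCAAT box, and to UMPS, the gene with the second lowest ratio, with none of them. Capitals mark the matches, and no base lies in more than 1 match.
PAICS, chr4:56435502-56435801, plus strand: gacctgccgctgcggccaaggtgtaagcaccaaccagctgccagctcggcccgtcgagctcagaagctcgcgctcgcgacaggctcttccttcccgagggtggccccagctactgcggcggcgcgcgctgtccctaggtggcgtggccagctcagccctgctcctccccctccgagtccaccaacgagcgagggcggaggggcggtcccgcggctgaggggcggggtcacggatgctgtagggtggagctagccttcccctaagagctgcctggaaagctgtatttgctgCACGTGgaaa
TYMS, chr18:657403-657702, plus strand: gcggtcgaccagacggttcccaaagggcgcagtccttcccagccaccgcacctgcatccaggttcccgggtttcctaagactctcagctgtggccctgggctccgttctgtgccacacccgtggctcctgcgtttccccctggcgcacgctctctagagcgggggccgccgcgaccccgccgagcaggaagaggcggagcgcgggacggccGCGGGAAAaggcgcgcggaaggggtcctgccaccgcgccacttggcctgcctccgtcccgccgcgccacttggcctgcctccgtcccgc
NME1, chr17:51153309-51153608, plus strand: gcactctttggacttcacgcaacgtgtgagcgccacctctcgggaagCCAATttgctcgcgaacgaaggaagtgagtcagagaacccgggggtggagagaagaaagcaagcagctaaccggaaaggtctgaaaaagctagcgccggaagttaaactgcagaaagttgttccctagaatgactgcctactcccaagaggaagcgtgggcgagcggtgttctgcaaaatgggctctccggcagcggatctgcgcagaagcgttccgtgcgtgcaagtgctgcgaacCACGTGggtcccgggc
UMPS, chr3:124730202-124730501, plus strand: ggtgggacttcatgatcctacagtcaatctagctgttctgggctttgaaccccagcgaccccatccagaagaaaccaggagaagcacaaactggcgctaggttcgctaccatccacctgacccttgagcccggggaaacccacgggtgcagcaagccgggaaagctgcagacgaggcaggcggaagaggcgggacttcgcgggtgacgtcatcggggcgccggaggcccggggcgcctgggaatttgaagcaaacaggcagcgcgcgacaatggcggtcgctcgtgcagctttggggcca

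The E-box was found in at least 1 window of 6 of the 31 genes (19.4%), namely PPAT, PAICS, ATIC, DHODH, NME1 and DCK, against 12.8% of 9691 measured genes with a window and 8.77% of all 27305 genes with one. An E2F spelling was found in 5 (16.1%), namely PRPS2, GART, TYMS, DUT and DCK, against 6.81% of measured genes and 3.99% of all. The CCAAT box was found in 10 (32.3%), among them TK1, RRM1, RRM2 and CAD, against 43.8% of measured genes and 39.7% of all. A match describes letters in these windows and is not a site, and genes have 1 to 4 windows each. Of factors known to act on such genes, MYC was at an FPKM of 186 in SOS and 208 in control (log2 ratio -0.16), and E2F1, a driver of entry into DNA synthesis, at 17.3 in SOS and 31.5 in control (-0.83). ATF4, a stress factor that favours the supply of glycine and one-carbon units, was at 499 in SOS and 463 in control. By mean FPKM, MYC and ATF4 fall in the highest decile, with a median ratio of -0.40. E2F1 falls in a decile with a median of -0.20. These factors were not rescaled to an equal summed FPKM.

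All 14 genes of the purine steps were lower in the SOS library as deposited, and 13 of them, all but GUK1, at equal summed FPKM. Without the mitochondrially encoded genes in the sum 12 were, with PFAS at 0.07 and GUK1 at 0.18. Their median log2 ratio was -0.56, with a range from -0.81 to -0.17. By at least 1.5-fold, 5 of them were lower. The summed FPKM of the purine genes was 1203 in SOS and 1696 in control.

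PRPP, the ribose carrier of purine and pyrimidine synthesis alike, is made by PRPS1 and PRPS2. PRPS1 (X chromosome, 107628424 to 107651026 on GRCh38) was measured at an FPKM of 49.8 in SOS and 69.3 in control. PRPS2 (X chromosome, 12791355 to 12824222) had 16.8 in SOS and 26.7 in control, past the 1.5-fold limit at -0.64. PRPS1 held 74.8% of the FPKM of the pair in SOS and 72.2% in control. By the turned ratio of the authors' deposited table the order of the pair was the other way, with PRPS1 at -0.75 and PRPS2 at -0.63.

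The 6 enzymes that assemble the purine ring were all lower as deposited, with a summed FPKM of 485 in SOS and 713 in control. PPAT, which commits PRPP to purine synthesis, stood at 20.8 in SOS and 26.9 in control, a ratio of -0.35. GART, a trifunctional enzyme of the early steps, stood at 57.2 in SOS and 89.6 in control (-0.64). PFAS, which acts between steps of GART, was at 34.9 in SOS and 42.6 in control (-0.28), the smallest difference of the 6, with 49.6% of the genes in its decile of expression lower. PAICS, which carboxylates the growing ring and adds aspartate, was at 165 in SOS and 244 in control (-0.57). ADSL, which cleaves fumarate off in both the ring assembly and the AMP branch, was at 112 in SOS and 170 in control (-0.60), past the 1.5-fold limit. It shares 18.9% of its annotated exonic bases with AL022238.4 on the same strand, which was at 7.99 in SOS and 5.49 in control (0.47). The split of reads between ADSL and AL022238.4 is thus uncertain. ATIC, which closes the ring to IMP, was at 95.3 in SOS and 139 in control (-0.54). The lowest deposited ratios were thus in GART and ADSL and the highest in the committed step and PFAS. Against the medians of their deciles the 6 lay closer together. GART was at -0.24, ADSL at -0.19, PPAT and PAICS at -0.16, ATIC at -0.14 and PFAS at 0.00.

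PPAT (chromosome 4, 56393362 to 56435615, minus strand) and PAICS (chromosome 4, 56435741 to 56464579, plus strand) are transcribed away from each other, with 126 bases between their annotated starts in GENCODE, so the first window printed above covers both starts and its E-box is in the window of each. By FPKM, PAICS was at 7.91 times the level of PPAT in SOS and 9.09 times in control. Transcript length may enter both multiples.

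IMP is turned into GMP by IMPDH1 or IMPDH2 and then GMPS, and into AMP by ADSS and then ADSL. The ratios of these 4 branch enzymes were nearly equal, from -0.62 to -0.56. IMPDH2, the abundant form in proliferating cells and a target of mycophenolic acid, was at 259 in SOS and 381 in control. IMPDH1 was at 46.1 in SOS and 71.4 in control, past the 1.5-fold limit at -0.62, and by the turned ratio of the authors' deposited table at -0.48. IMPDH2 held 84.9% of the pair in SOS and 84.2% in control, so the balance of the forms differed little. GMPS, which aminates XMP to GMP, was at 33.0 in SOS and 49.1 in control. ADSS, on the AMP side, was at 13.6 in SOS and 20.5 in control. Neither branch stood apart from the other by its deposited ratio. Against the medians of their deciles, ADSS was at -0.45, IMPDH1 at -0.34, GMPS at -0.28 and IMPDH2 at -0.16.

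The kinases that raise AMP and GMP to diphosphates differed from each other more than any other pair of the purine steps. AK1, a cytosolic adenylate kinase, was at 42.1 in SOS and 74.5 in control, the lowest purine ratio at -0.81. GUK1, the guanylate kinase, was at 257 in SOS and 290 in control (-0.17), above the median of its decile by 0.23. AK1 shares 33.5% of its annotated exonic bases with AL157935.2 on the same strand, which was at 5.71 in SOS and 4.50 in control, so the split of reads between them is uncertain.

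**Figure D2:**
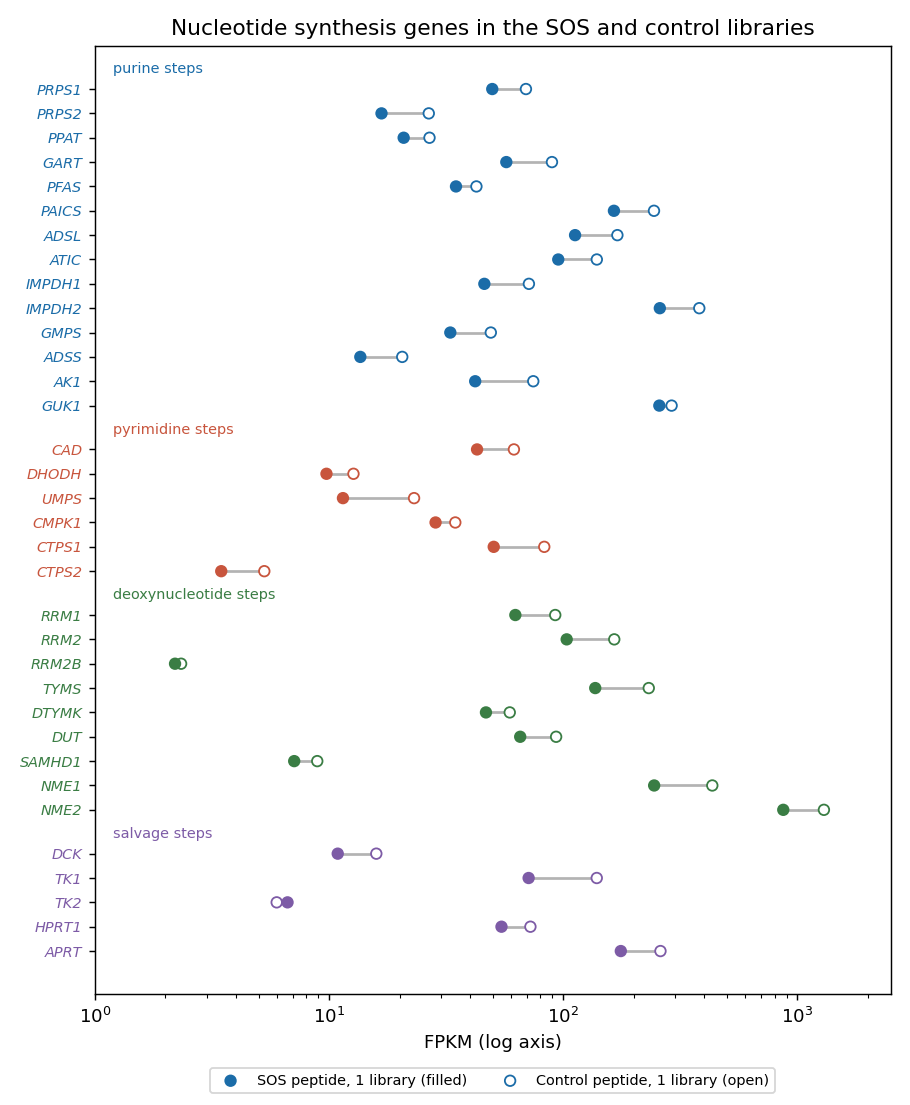
FPKM (horizontal log axis) of each of the 34 nucleotide synthesis genes in the SOS library (filled) and the control library (open), 1 library each, grouped by step. The filled point lies left of the open one for every gene but TK2, and levels span from 2.20 for RRM2B in SOS to 1299 for NME2 in control.

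All 6 genes of the pyrimidine steps were lower in the SOS library, as deposited and at equal summed FPKM, and 5 were without the mitochondrially encoded genes in that sum, CMPK1 turning to 0.07. The deposited median ratio was -0.50, and 2 were past the 1.5-fold limit. UMPS stood apart among them. CAD, the trifunctional protein that starts the pathway, was at 42.9 in SOS and 61.6 in control (-0.51). DHODH, the mitochondrial enzyme that oxidises dihydroorotate, was at 9.75 in SOS and 12.7 in control (-0.35), and at -0.15 by the turned ratio of the authors' deposited table. UMPS (chromosome 3, 124730366 to 124749273), which joins orotate to PRPP and decarboxylates the product to UMP, was at 11.5 in SOS and 23.1 in control. Its plain ratio of 0.497 was the lowest of the 34 genes, and of the 34 it alone was lower by over 2-fold without the pseudocount. Only 1.97% of measured genes had a log2 ratio below its -0.95, and its distance from the median of its decile was -0.84. By the turned ratio of the authors' deposited table it was at -0.89, and with each decile's median set to 0 it was the only one of the 34 lower by at least 1.5-fold, as 7.03% of all measured genes were. The window of its promoter, printed above, holds no E-box, CCAAT box or E2F spelling.

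CMPK1, which phosphorylates UMP and CMP, was at 28.5 in SOS and 34.6 in control (-0.27). CTPS1, which aminates UTP to CTP and is needed by dividing lymphocytes, was at 50.5 in SOS and 83.0 in control (-0.71), past the 1.5-fold limit. Its paralogue CTPS2 was at 3.47 in SOS and 5.29 in control (-0.49). CTPS1 held 93.6% of the pair in SOS and 94% in control. By plain ratio the CTP synthases were near each other, at 0.608 for CTPS1 and 0.655 for CTPS2, with CMPK1 at 0.824. By the log2 ratio with its pseudocount, CTPS2 lay between CTPS1 and CMPK1.

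The 9 genes of the deoxynucleotide steps were all lower in the SOS library as deposited, and 8 of them, all but RRM2B, at equal summed FPKM. Without the mitochondrially encoded genes in the sum 6 were, with RRM2B at 0.19, DTYMK at 0.02 and SAMHD1 at 0.03. Their deposited median was -0.56, and 3 were past the 1.5-fold limit. RRM1, the large subunit of ribonucleotide reductase, was at 62.5 in SOS and 92.5 in control (-0.56). RRM2 (chromosome 2, 10120698 to 10131419), the small subunit made in S phase, was at 104 in SOS and 165 in control (-0.67), and at -0.81 by the turned ratio of the authors' deposited table. RRM2B, the small subunit that serves outside S phase and in DNA repair, was at 2.20 in SOS and 2.34 in control, nearly level at -0.06. RRM2 was thus at 47.1 times the FPKM of RRM2B in SOS and 70.8 times in control. It held 97.9% of the small-subunit FPKM in SOS and 98.6% in control. Transcript length may enter these multiples and shares. Against the medians of their deciles the small subunits lay near each other, RRM2 at -0.27 and RRM2B at -0.22. RRM2 shares 20.2% of its exonic bases with AC007240.1, which is not analysed here.

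Thymidylate is made by TYMS, the target of 5-fluorouracil, from the dUMP that DUT supplies, and DTYMK phosphorylates it. TYMS (chromosome 18, 657604 to 673578) was at 137 in SOS and 232 in control (-0.75), past the 1.5-fold limit. DUT, which also keeps uracil out of DNA, was at 65.5 in SOS and 93.3 in control (-0.50), and DTYMK was at 46.8 in SOS and 59.1 in control (-0.33). TYMS shares 39.1% of its exonic bases with ENOSF1 on the opposite strand, the most of any of the 34 genes. ENOSF1 went the other way, at 52.9 in SOS and 41.9 in control. Whether the libraries kept strand is not given in the sources used here, so reads of the shared stretch cannot be told apart.

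The last step to triphosphates belongs to the nucleoside diphosphate kinases, which serve ribonucleotides and deoxyribonucleotides alike. NME2, with the highest FPKM of the 34 genes, was at 871 in SOS and 1299 in control (-0.58), just short of the 1.5-fold limit. NME1 (chromosome 17, 51153536 to 51162428) was at 245 in SOS and 433 in control (-0.82), and at -0.86 by the turned ratio of the authors' deposited table. NME2 held 78.1% of the pair in SOS and 75% in control. The genes are closely related neighbours joined by the readthrough gene NME1-NME2, at 14.0 in SOS and 18.5 in control. It covers 18.6% of the exonic bases of NME1 and 22.9% of those of NME2, so the split of reads is uncertain. SAMHD1, which breaks down deoxynucleoside triphosphates and so opposes the others, was at 7.10 in SOS and 8.91 in control (-0.29). Against the median of its decile it was at -0.32.

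The salvage genes held both ends of the range. TK1 (chromosome 17, 78174075 to 78187233), the cytosolic thymidine kinase of S phase, was at 71.2 in SOS and 139 in control, a plain ratio of 0.512. Its log2 ratio of -0.96 was the lowest of the 34 and lower than all but 1.82% of genes in its decile. By the turned ratio of the authors' deposited table it was at -0.80, above UMPS, NME1 and RRM2. TK2, the mitochondrial thymidine kinase that works outside S phase, was at 6.65 in SOS and 5.98 in control (0.13), the only gene of the 34 above 0. TK1 was at 10.7 times the FPKM of TK2 in SOS and 23.3 times in control, the largest change of balance among the pairs compared. Annotated exonic bases were 1861 for TK1 and 7169 for TK2, so length may enter both multiples. Against the medians of their deciles, TK1 was at -0.55 and TK2 at 0.06. DCK, which phosphorylates deoxycytidine and activates cytarabine and gemcitabine, was at 10.9 in SOS and 15.9 in control (-0.51). The purine salvage enzymes HPRT1, for hypoxanthine and guanine, and APRT, for adenine, were at 54.5 and 176 in SOS and at 72.5 and 260 in control, ratios of -0.40 and -0.56.

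**Figure D3:**
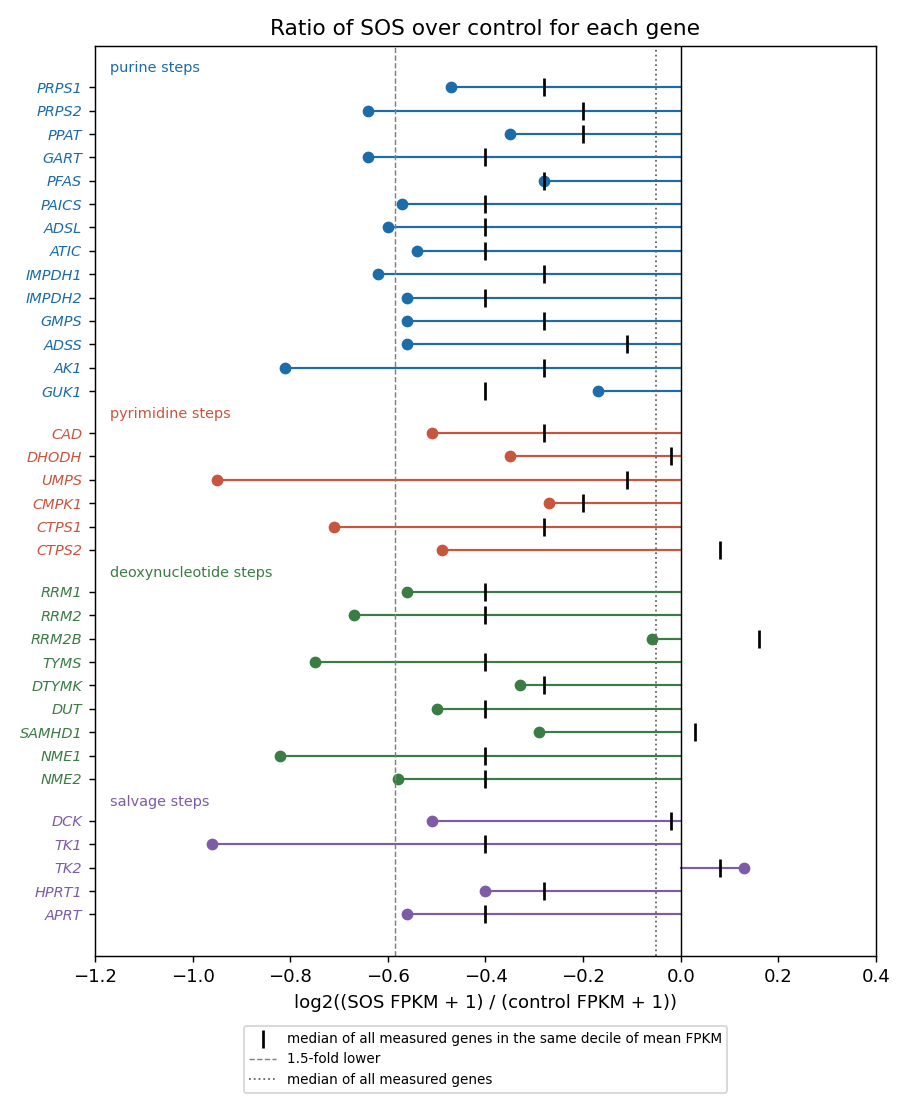
Log2 ratio of SOS over control (horizontal axis, pseudocount of 1) for each gene by step, with a black tick at the median of all measured genes in the same decile of mean FPKM, a dashed line at 1.5-fold lower and a dotted line at the median of all measured genes. TK1 at -0.96 and UMPS at -0.95 reach farthest to the left, and only GUK1 and TK2 lie right of their ticks.

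Across the 4 groups of steps the medians lay close together, at -0.56 for purine, -0.50 for pyrimidine, -0.56 for deoxynucleotide and -0.51 for salvage genes. With each decile's median set to 0 they parted more, at -0.19 for purine, -0.38 for pyrimidine, -0.22 for deoxynucleotide and -0.16 for salvage genes. Across the 34 genes the ratio was lower where the level was higher (Spearman rho = -0.44, a description over genes of the same 2 libraries, whose ratio also holds the level). The 4 genes with the lowest mean FPKM, RRM2B, CTPS2, TK2 and SAMHD1, lay between -0.49 and 0.13. Exonic bases are shared with another annotated gene in 15 of the 34. The 19 that share none were all below 0, with a median of -0.51. Pseudogenes named after 11 of the genes are annotated, and those in the table summed to an FPKM of at most 1.79 in either library for any 1 parent, which was PRPS1.

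The other genes of nucleotide metabolism did not share the direction as a body. Of a list of 58 further kinases, salvage and breakdown enzymes, nucleotidases and nucleoside transporters, 41 were measured, 23 of them below 0 and 18 above, with a median of -0.09, and at equal summed FPKM 18 were below 0 and 23 above. By at least 1.5-fold, 6 were lower and 1 was higher, against 10.3% and 11.6% of all measured genes. Their levels were lower too, with a median mean FPKM of 23.0 against 59.1 for the 34 synthesis genes, and against the median of its decile 19 were below and 22 above. The difference between the lists was described and not tested.

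A gene of this list had a lower ratio than any synthesis gene. DCTPP1, which hydrolyses dCTP and modified deoxycytidine triphosphates, was at 33.5 in SOS and 72.5 in control (-1.09), past a 2-fold difference. SLC29A1, the equilibrative nucleoside transporter ENT1, was at 49.4 in SOS and 94.5 in control (-0.92). AMPD3, an AMP deaminase, was at 1.16 in SOS and 0.037 in control (1.06), a level in control too low for a fold to be read. PNP, which splits purine nucleosides, was at 59.3 in SOS and 94.0 in control (-0.66).

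The most abundant genes of the other classes differed less. UCK2, a uridine and cytidine kinase, was at 66.0 in SOS and 89.9 in control, and DGUOK, the mitochondrial deoxyguanosine kinase, at 90.8 in SOS and 115 in control. The nucleotidase NT5C was at 47.2 in SOS and 50.3 in control, and NME7 at 13.0 in SOS and 12.3 in control. PRPSAP1, a protein that associates with PRPP synthetase and restrains it, was at 64.3 in SOS and 63.9 in control, level by FPKM while both synthetases were lower. By the turned ratio of the authors' deposited table PRPSAP1 was at 0.34. PRPS1 was at 0.775 times the FPKM of PRPSAP1 in SOS and 1.09 times in control. All 5 measured genes of the deoxynucleotide class were below 0 as deposited, DCTD turning to 0.08 at equal summed FPKM. Without the mitochondrially encoded genes in the sum, DCTD was at 0.21 and DGUOK at 0.01. Against the medians of their deciles, 3 were below and 2 above.

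**Figure D4:**
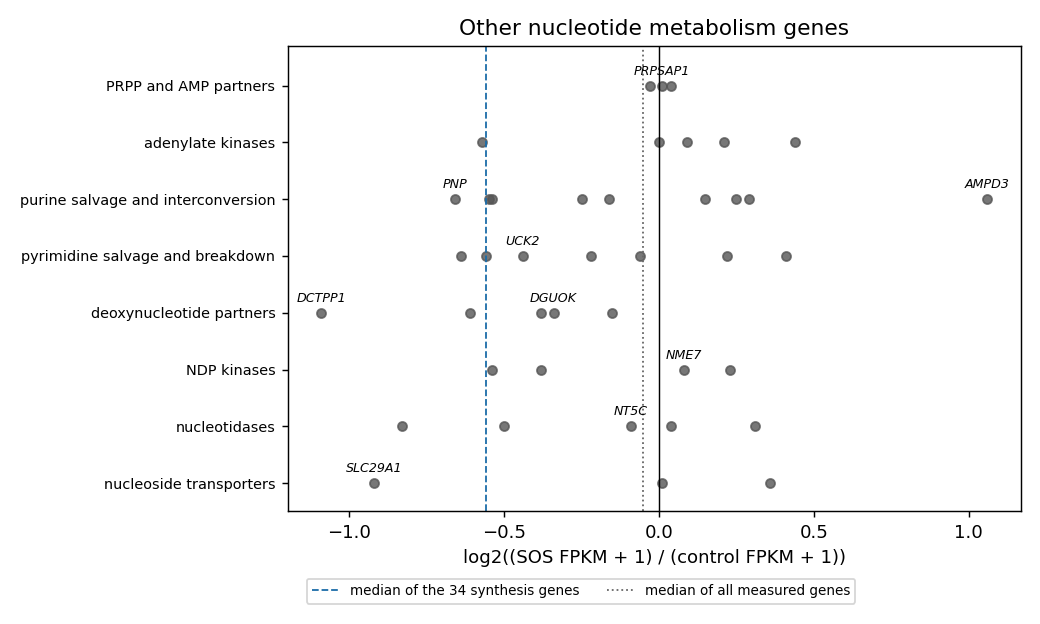
Log2 ratio of SOS over control (horizontal axis, pseudocount of 1) for the 41 measured genes of the other nucleotide metabolism list, by class, with the most abundant gene of each class but the adenylate kinases, and those past a ratio of 1 in either direction, named. Points lie on both sides of 0, from DCTPP1 at -1.09 to AMPD3 at 1.06, while the dashed line marks the median of the 34 synthesis genes at -0.56.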

How the data were processed

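RNA of HGC-27 cells was sequenced in 2 libraries, 1 per group. The submitters' processing notes name the build GRCh38.p10 and the tools RSEM, HISAT2 and Cufflinks. Their versions, and which step each served, were not given in the sources used here. Per the file headers, the authors deposited FPKM for each library, their log2 ratio, and their p-value and adjusted p-value, which were not used. Between 0.1 and 2, the deposited FPKM are whole multiples of 1 step per library (tolerance 0.0006). This held for 100% of 7083 values in SOS and 6934 in control. The step was the same for all these values, whereas scaling by transcript length would vary it from gene to gene. Values between 0.1 and 2 thus show no scaling by transcript length, although the column names call them FPKM. Values above 2 were not examined in this way. Whether a step is 1 read was not tested, so depth is unknown.

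Of 58645 entries, 412 had no name or value and 27 carried dates for names; they were left out. Values of 213 names on more than 1 entry were summed. A pseudocount of 1 was added before the log2 ratio was taken, and genes under 1 FPKM in both libraries were not counted as measured, with Python 3.11.15 and pandas 2.3.3, checked on simulated data. The authors' ratio was turned, and its median offset of -0.15 from the log2 FPKM ratio over 8991 genes at 5 FPKM or more in both libraries was removed (Pearson r = 0.93 across genes). Positions and exons come from GENCODE release 29 (GRCh38). All 34 genes are named. Of the other list, the most abundant gene of each class and those past a ratio of 1 are named, and of regulators MYC, E2F1 and ATF4; a gene of each of these lists is not reported here. The genes, lists and alternatives were chosen with earlier results of these data known.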

Additional observations from a re-analysis of the deposited data

How the results depend on the processing

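Medians below are given for all 34 genes, then for purine, pyrimidine, deoxynucleotide and salvage steps, then for the other list. With a pseudocount of 0.1 they were -0.56, -0.57, -0.56, -0.57, -0.54 and -0.10, with 1 gene lower by at least 1 on the log2 scale, and with a pseudocount of 5 they were -0.52, -0.53, -0.38, -0.53, -0.40 and -0.08. Scaled to an equal summed FPKM, the geometric mean of the 2 sums, they were -0.33, -0.34, -0.30, -0.34, -0.30 and 0.08, and 4 of the 34 genes were lower by at least 1.5-fold, against 4.02% of all measured genes. GUK1 was then at 0.05 and RRM2B at 0.10. Of all measured genes past a 2-fold difference, 828 were then higher and 153 lower, against 535 and 235 as deposited. With the mitochondrially encoded genes left out of that sum the medians were -0.21, -0.21, -0.18, -0.21, -0.18 and 0.21, the median of all measured genes was 0.26, and 2 genes were lower by at least 1.5-fold, against 2.52% of all. PFAS was then at 0.07, GUK1 at 0.18, CMPK1 at 0.07, RRM2B at 0.19, DTYMK at 0.02 and SAMHD1 at 0.03. With the median of all measured genes set to 0 the medians were -0.51, -0.51, -0.45, -0.51, -0.46 and -0.04. With the median of each decile set to 0 they were -0.23, -0.19, -0.38, -0.22, -0.16 and 0.04, 1 gene was lower by at least 1.5-fold, against 7.03% of all, so the excess seen as deposited was not seen, and GUK1 was at 0.23. By the turned ratio of the authors' deposited table the first 5 were -0.57, -0.59, -0.58, -0.62 and -0.55. A minimum FPKM of 5 gave -0.57 for the deoxynucleotide steps and -0.22 for the other list, no minimum gave 0.00 for the other list, and taking the highest entry per name changed none of these values. The cause of these shifts was not tested. No paired analysis was possible because there is 1 library per group. Depth is unknown, so no counting error is given.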
